A study of Mus musculus with 9 samples.

Results

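The miRNA miR-202-3p (mmu-miR-202-3p in the files) was followed in mouse liver together with miR-202-5p (mmu-miR-202-5p), the other arm of the same hairpin. Both arms were picked out by name from the 1881 mouse miRNAs on the array, and they are read by 3 of its 4415 probes, with 2 probes for miR-202-3p and 1 for miR-202-5p. miR-202-3p itself was chosen on the readout described here, because its level was lower after a high fat diet and higher again with metformin. Its own differences between the groups are therefore given as a description, with their errors and without a test.

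Liver miRNA was measured on 9 one-colour Agilent arrays in 3 groups of 3 arrays, all from male C57BL/6J mice, an inbred strain, at 20 weeks of age. For 17 weeks from an age of 3 weeks the metformin group was kept on high fat chow (45% of calories as fat), and was given metformin by stomach tube at 3 mg per kg per day over the last 5 weeks, from 15 weeks of age. The high fat diet group ate the same diet for the same time and was given saline by stomach tube over those 5 weeks. The control group ate chow for 17 weeks, and whether it was given a vehicle is not stated in the sources used here. Each array measured RNA from 15 mg of liver pooled over 4 mice, so every spread between arrays given here is a spread between pools. The label fits the data in that 4 of 5 hepatocyte miRNAs (miR-122-5p, miR-192-5p, miR-194-5p and miR-148a-3p) were detected on all 9 arrays.

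A miRNA is a short RNA that guides a silencing complex to messenger RNAs, mostly by pairing through its seed near the 5′ end, and lowers the output of those messengers. miR-202 is best known in the gonads: in the mouse it is enriched in testis and ovary, and its expression in developing Sertoli cells has been linked to the testis factor SOX9. Metformin, a common diabetes drug, lowers blood glucose and acts in large part on the liver. The let-7 miRNAs, which share part of the miR-202-3p seed, repress growth genes such as those of the Ras family and have been tied to glucose metabolism.

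The mature arms are printed first because they define what the probes read, with the seed (bases 2 to 8 counted from the 5′ end) in capitals. Sequences and coordinates are those of RefSeq for the mouse build GRCm38.p6 and were matched by name. The array files name an older build and hold no probe sequence.
miR-202-3p: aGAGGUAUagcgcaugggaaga
miR-202-5p: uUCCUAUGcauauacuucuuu
Both are cut from the Mir202 hairpin of 72 bases on the minus strand of chromosome 7 at chr7:139957689-139957760, where the annotation also places the long non-coding RNA gene Gm16201. miR-202-3p lies at chr7:139957695-139957716 and miR-202-5p at chr7:139957732-139957752. In the hairpin, both arms are in capitals, with miR-202-5p at bases 9 to 29 and miR-202-3p at bases 45 to 66.
Mir202 hairpin: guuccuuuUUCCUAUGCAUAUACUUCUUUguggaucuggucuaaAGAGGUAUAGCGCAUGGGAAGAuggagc

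Among 1679 mature mouse miRNA names in the RefSeq table, 1 other shares the full seed GAGGUAU of miR-202-3p, namely let-7j, and 0 others share the seed UCCUAUG of miR-202-5p. Over bases 2 to 7 (GAGGUA) the match widens to 12 names, of which 11 are the let-7 family and 1 is miR-1961. The let-7 members below are shown because they match miR-202-3p over bases 2 to 7, and let-7j over the whole seed.
let-7a-5p: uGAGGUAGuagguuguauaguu
let-7d-5p: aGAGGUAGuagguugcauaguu
let-7i-5p: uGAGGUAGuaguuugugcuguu
let-7j: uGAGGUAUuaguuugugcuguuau
Beyond the seed the sequences part, and the 11 let-7 members equal miR-202-3p at 7 to 9 positions counted from the 5′ end.

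The arrays set limits on what can be read from a dim miRNA. On 6 of the 9 arrays, strips of columns at the left or right edge held spots of bright probes with low signal. All spots in these strips were left out. A strip ended at the first 4 columns where, as in the next 4, under 10% of the spots of bright probes were low. Some spots left out therefore had usual intensity. The share of spots left out was 0%, 31.1% and 0% on the metformin arrays, 53.6%, 0% and 33.6% on those of the high fat diet, and 43.8%, 43.5% and 41.1% on the control arrays. Strips therefore covered more of the control arrays than of the metformin arrays. The scanner software detected between 136 and 190 miRNAs on an array, over a mean local background of 16.1 to 21.0 intensity units, and 1668 miRNAs were detected on no array. Below, a level is the median background-subtracted intensity of the spots kept for a probe, set relative to the 75th percentile of the 187 probes detected on every array, on the log2 scale. Of the 1881 miRNAs, 143 had signal above the detection limit on each of the 3 arrays of some group and entered the comparisons.

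miR-202-3p was detected by the scanner software on 9 of 9 arrays, at a background-subtracted intensity of similar size to the local background. The better lit of its 2 probes, called the brighter probe here, had 15 spots per array, of which 8 to 15 were kept. Of the 105 spots kept over all arrays, 105 lay well above background by the scanner software's own mark. Of its 30 spots inside the strips, 6 did (20%).

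The median spot intensity of the brighter probe was 32.9, 30.4 and 33.5 on the metformin arrays, 22.9, 24.6 and 27.0 in the high fat diet group, and 26.0, 32.5 and 36.6 on the control arrays. The local background under these spots lay between 16.4 and 19.5. Every metformin array was thus brighter than every high fat diet array, whereas the first control array fell just under the third high fat diet array. Single spots of this probe varied by a coefficient of variation between 10.2% and 28.6% within an array, with a median of 21.7%.

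**Figure D1:**
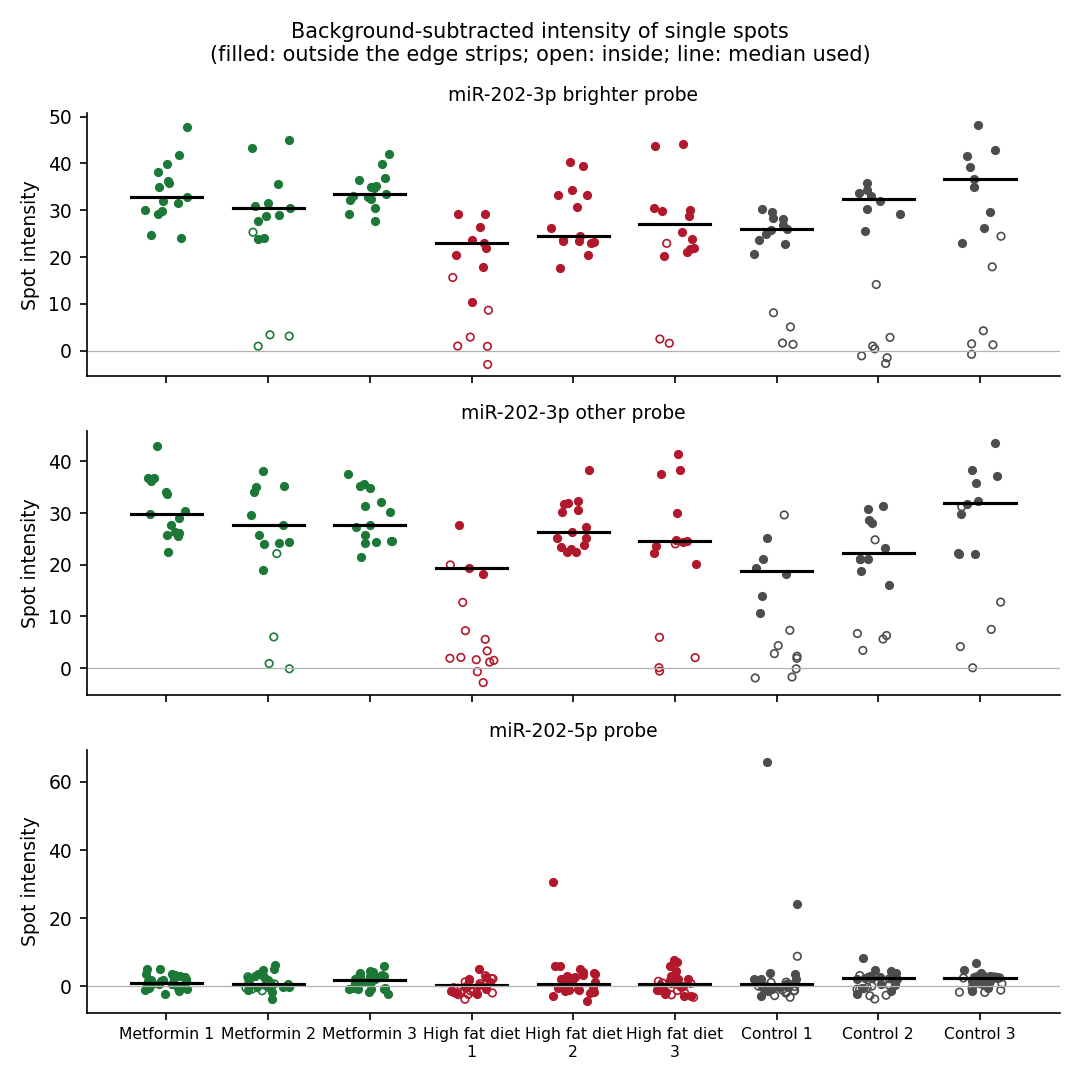
Background-subtracted intensity (scanner units, linear axes with a scale of their own in each panel) of every spot of the 3 miR-202 probes on the 9 arrays, metformin in green, high fat diet in red and control in grey. Filled points lie outside the edge strips and open points inside them, and the black line is the median of the spots used. Spots outside the strips with a non-uniformity mark are drawn filled but were not used. The brighter miR-202-3p probe has medians of 22.9 to 27.0 on high fat diet arrays and 30.4 to 33.5 on metformin arrays, whereas the miR-202-5p probe stays near 0 apart from a few single spots.

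After scaling, the log2 level of the brighter probe was -2.94, -2.92 and -2.82 on the metformin arrays, -3.27, -3.50 and -3.58 in the high fat diet group, and -2.89, -2.77 and -2.62 on the control arrays. All high fat diet arrays lay below all arrays of the other groups, while metformin and control arrays overlapped. The group means were -2.89 ± 0.06 with metformin, -3.45 ± 0.16 on the high fat diet and -2.76 ± 0.13 on chow (SD, n = 3 pools each). In liver, which holds several cell types, a lower level can come from fewer cells of a type or from less RNA per cell, and these cannot be told apart here.

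**Figure D2:**
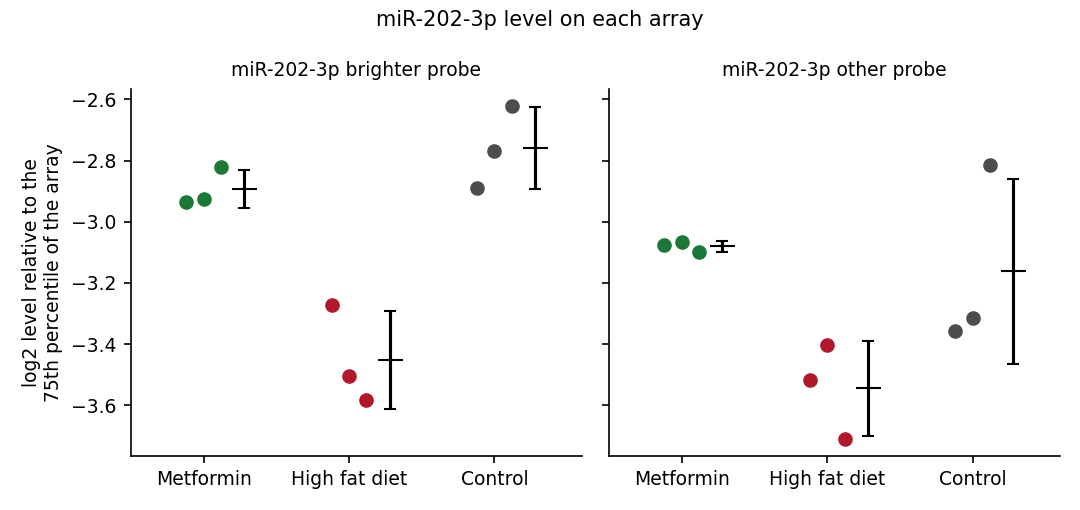
Log2 level of miR-202-3p relative to the 75th percentile of the array, for each of its probes, with 1 point per array and the group mean ± SD (n = 3) beside the points. In both panels the high fat diet arrays lie lowest. Metformin and control arrays overlap in both.

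The first comparison concerns the diet alone. miR-202-3p was 0.69 lower on the log2 scale in the high fat diet group than in the control group (difference -0.69, SE 0.11, 95% interval -0.93 to -0.45), or 1.62-fold lower. The gap between the lowest control array and the highest high fat diet array was 0.38. The median over all 143 miRNAs was 0.03, and miR-202-3p had the lowest value in this reading but not in 12 of 19 other ways of processing. In that comparison limma called 20 of 143 miRNAs at an adjusted p under 0.05 (14.0%), of which 6 were higher and 14 lower on the high fat diet. Likewise 22 of 143 (15.4%) were lower on the high fat diet with no overlap between arrays. Both counts include miR-202-3p, which was chosen on these values, so its place there is no test of it.

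The second comparison sets metformin against the high fat diet with saline. miR-202-3p was 0.56 higher on the log2 scale in the metformin group (SE 0.11, 95% interval 0.32 to 0.80), or 1.47-fold higher. The lowest metformin array lay 0.34 above the highest high fat diet array. The median over the 143 miRNAs was -0.06, and miR-202-3p had the highest value in this reading but not in 5 of 19 other ways of processing. limma called 2 of 143 here (1.40%), both higher with metformin, and 12 of 143 (8.39%) were higher with metformin with no overlap between arrays. miR-202-3p is among both counts, but it was chosen on these values, so its place there is no test of it. The count of 2 was 0 in most other ways of processing.

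Between metformin and control, the sum of the 2 differences above, miR-202-3p differed by -0.13 on the log2 scale (SE 0.11, 95% interval -0.37 to 0.10), and the arrays overlapped. The interval leaves room for a level in the metformin group up to 0.37 lower than on chow. limma called 2 of 143 miRNAs in this comparison (1.40%), with 1 higher and 1 lower with metformin. The 3 comparisons share arrays pairwise, so a high or low array counts in more than 1 of them. The standard error for miR-202-3p, 0.108, was close to the median of 0.117 over all tested miRNAs.

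The other miR-202-3p probe, also with 15 spots, gave a second reading of the same RNA on the same arrays. Its spots kept numbered 15, 11 and 15 on the metformin arrays, 3, 15 and 10 in the high fat diet group, and 6, 10 and 10 on the control arrays. Its median intensity was 29.9, 27.6 and 27.6 with metformin, 19.3, 26.4 and 24.7 on the high fat diet, and 18.8, 22.2 and 32.1 on chow. The metformin arrays again lay above all high fat diet arrays, but 2 of the 3 control arrays did not. Of its 95 spots kept, 94 (98.9%) were well above background.

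On the log2 scale the level of this probe was -3.07, -3.06 and -3.10 with metformin, -3.52, -3.40 and -3.71 on the high fat diet, and -3.36, -3.32 and -2.81 on chow. Its difference between high fat diet and control was -0.38 (SE 0.14), 1.30-fold lower, with no overlap but a gap of only 0.05 between the nearest arrays. Its difference between metformin and high fat diet was 0.46 (SE 0.14), 1.38-fold higher, again with no overlap. The difference with the diet was thus smaller by this probe than by the brighter one, and its group means were -3.08 ± 0.02, -3.54 ± 0.15 and -3.16 ± 0.30 for metformin, high fat diet and control (SD, n = 3 pools each). Over the 9 arrays the probes had a Pearson correlation of 0.82, and 0.62 for the deviations from the group means. Both readings share the array, its scaling and its strips.

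How much of each difference came with the scaling can be read from the unscaled intensities. The 75th percentile used for scaling was 231 to 252 on the metformin arrays, 221 to 323 in the high fat diet group and 193 to 225 on the control arrays. On the log2 scale this percentile was 0.35 higher on the high fat diet than on chow and 0.18 lower with metformin than on the high fat diet (difference -0.18). Without scaling, the brighter probe differed by -0.34 between high fat diet and control, with overlapping arrays, and by 0.38 between metformin and high fat diet, with no overlap. The other probe differed by -0.03 and 0.29 without scaling.

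The higher value with metformin was therefore present before scaling in both probes, while the difference with the diet was smaller before scaling than after it by the brighter probe and near 0 by the other. Across the 9 arrays, the level of the brighter probe had a Pearson correlation of -0.73 with the log2 scaling percentile. The scaled level contains that percentile as its divisor. The unscaled value had a correlation of -0.13 with it. The part of array brightness in the diet difference was not tested.

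Array position also went partly with the groups. The 3 high fat diet arrays and the first metformin array lay in row 1 of the main slide, the other 2 metformin arrays and the first 2 control arrays lay in row 2, and the third control array lay alone on another slide. Within row 1, metformin exceeded high fat diet by 0.52 on the log2 scale (1 array against 3). Within row 2, metformin differed from control by -0.04 (2 arrays against 2). High fat diet and control arrays shared no row, so row and diet cannot be told apart within a row. With row as a block and the third control array left out, the difference between high fat diet and control was -0.56 (SE 0.21). That value links these groups only through the metformin arrays, of which 1 lay in row 1. Leaving out the third control array alone gave -0.62 (SE 0.12).

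Where spots were restricted to the same 3 positions on every array, outside all strips, the brighter probe still separated the high fat diet arrays. The levels were then -2.76, -2.95 and -2.92 with metformin, -3.18, -3.36 and -3.46 on the high fat diet, and -2.74, -2.84 and -2.91 on chow. With the strips kept and the mean taken over all spots without an outlier mark, which left 10 of 15 spots on the second metformin array, 11 of 15 on array 3 of the high fat diet group and 15 on the others, they were -3.26, -3.09 and -3.21 with metformin, -3.51, -3.74 and -3.74 on the high fat diet, and -3.09, -3.33 and -3.21 on chow. In both readings the high fat diet arrays were the lowest and the metformin and control arrays overlapped. The differences were smaller than in the strip-free reading, at -0.51 and -0.45 for high fat diet against control and 0.46 and 0.47 for metformin against high fat diet.

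The authors' deposited value table, on a log2 scale with a constant of its own for each array, gave the same order. There miR-202-3p stood at 1.67, 1.97 and 1.63 with metformin, 1.58, 1.49 and 0.95 on the high fat diet, and 1.89, 1.91 and 1.88 on chow. The high fat diet arrays were again lowest, and the third of them lay apart from the other 2. The group means were 1.76 ± 0.19, 1.34 ± 0.34 and 1.89 ± 0.02 for metformin, high fat diet and control (SD, n = 3 pools each).

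**Figure D3:**
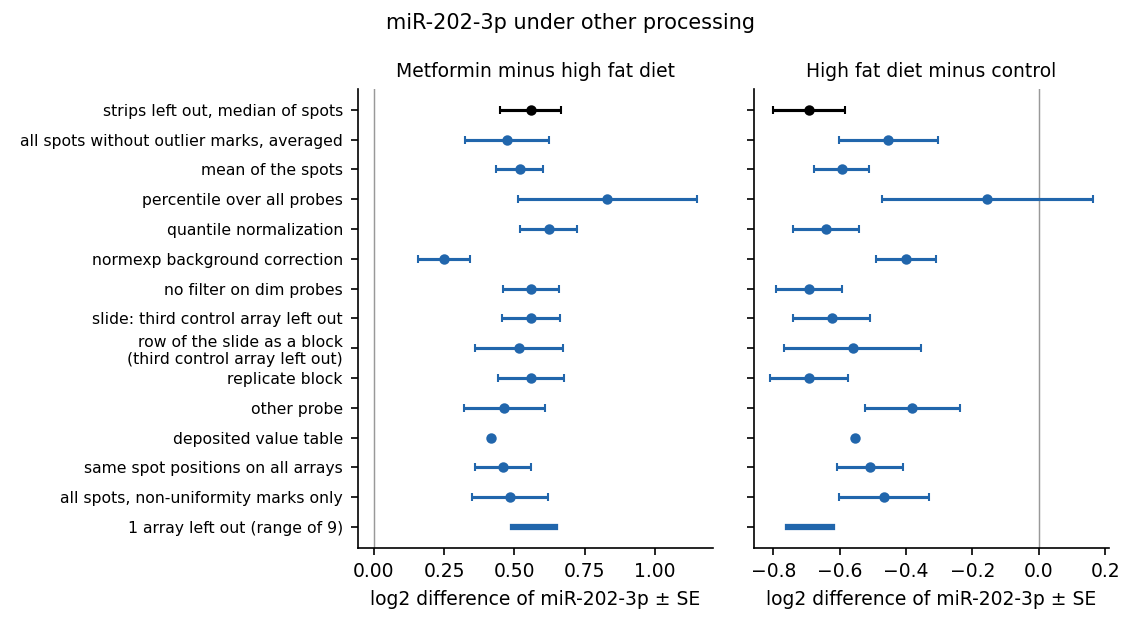
Log2 difference of miR-202-3p (x axis, with SE where a fit gives one) for metformin minus high fat diet on the left and high fat diet minus control on the right, with 1 row for each way of processing and the reported value in black at the top. The bar in the lowest row is the range over the 9 fits that leave out 1 array. All points lie above 0 on the left and below 0 on the right, and the point for the percentile over all probes (-0.15) has an SE that reaches past 0.

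The other arm, miR-202-5p, was not detected. Its probe had 30 spots, and the median intensity was 0.96, 0.59 and 1.97 with metformin, 0.40, 0.87 and 0.76 on the high fat diet, and 0.71, 2.54 and 2.40 on chow, over a local background of 16.0 to 19.5. Of the 197 spots kept, 2 (1.02%) were well above background, 1 on array 2 of the high fat diet group and 1 on array 1 of the control group. The probe met the detection criterion on 0 of 9 arrays, and its level was at the floor (-4.62 on the log2 scale) on all 9, so no fold is given. In the authors' deposited table it stood at the lowest value of its array on all 9 arrays. The ratio between the arms cannot be given from these probes, and a level below this floor would not have been detectable.

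Since miR-202 is known from the gonads, a list of 9 gonad and testis miRNAs was read on the same arrays, among them miR-34c-5p, miR-449a-5p and miR-741-3p. Of the 9, all are on the array and 0 were detected on any array. Of 3 pancreas miRNAs (miR-216a-5p, miR-217-5p and miR-375-3p), 0 were detected on any array. Of all 1881 miRNAs, 1668 were detected on no array, so 0 of 9 and 0 of 3 say little about these tissues. The hepatocyte list had a summed level of 107 to 120 times the scaling percentile with metformin, 98.0 to 110 on the high fat diet and 104 to 117 on chow, and limma called 0 of its 4 tested members in any comparison (1, 0 and 1 at an unadjusted p under 0.05 in high fat diet minus control, metformin minus high fat diet and metformin minus control). Its best known member, miR-122-5p, differed by -0.10 between high fat diet and control and by 0.14 between metformin and high fat diet. Over all 143 miRNAs, limma called 14.0%, 1.40% and 1.40% in these 3 comparisons, so 0 calls among 4 hepatocyte members says little.

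Markers of other liver cells moved in part with the groups. Of 5 stellate and mesenchymal miRNAs, 2 were tested (miR-199a-3p and miR-199a-5p) and miR-145a-5p was detected on 0 arrays. Their summed level was 0.274 to 0.288 with metformin, 0.299 to 0.319 on the high fat diet and 0.246 to 0.258 on chow, highest on all high fat diet arrays, where miR-202-3p was lowest. limma called 1 of these 2, miR-199a-3p, which rose by 0.31 on the high fat diet (adjusted p = 0.0301) in this reading but was not called with the strips kept and outlier-marked spots left out. Of 3 red blood cell miRNAs, miR-451a was tested and miR-144-3p was detected on 0 arrays. The red blood cell level was 0.260 to 0.303 with metformin, 0.504 to 0.695 on the high fat diet and 0.337 to 0.915 on chow. All metformin arrays thus lay below all other arrays. On the log2 scale miR-451a differed by -1.01 between metformin and high fat diet and by -0.90 between metformin and control. Both were the lowest values of the 143 miRNAs in this reading. Each had an unadjusted p under 0.05 by limma, but neither was called after adjustment.

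Leukocyte miRNAs (2 of 5 tested, miR-150-5p detected on 0 arrays) ran from 0.242 to 0.276 with metformin, 0.262 to 0.323 on the high fat diet and 0.254 to 0.311 on chow. The endothelial miR-126a-3p, the tested 1 of 2, ran from 2.69 to 3.28, 3.13 to 3.19 and 2.62 to 2.93 in metformin, high fat diet and control. The leukocyte and endothelial ranges overlapped between metformin and high fat diet arrays. miR-126a-3p lay higher on all high fat diet arrays than on all control arrays. Its log2 difference there was 0.18, which limma did not call. The part of any of these cell types in the miR-202-3p differences was not tested.

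The let-7 family shares bases 2 to 7 with miR-202-3p. Of its 11 members, 9 were detected and tested, and let-7j and let-7k were detected on 0 arrays. limma called 0 of the 9 higher and 0 lower in each of the 3 comparisons, with 1, 0 and 1 at an unadjusted p under 0.05 in high fat diet minus control, metformin minus high fat diet and metformin minus control. Their log2 differences ran between -0.17 and 0.20 for high fat diet minus control, with a median of 0.07, and between -0.19 and 0.14 for metformin minus high fat diet, with a median of -0.02. For comparison, the medians over all 143 miRNAs were 0.03 and -0.06. Over all 143, limma called 14.0%, 1.40% and 1.40% in the 3 comparisons, with 51, 13 and 30 at an unadjusted p under 0.05. At such shares, 0 calls among 9 members does not set the family apart.

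Single let-7 members showed small differences. let-7a-5p differed by 0.10 (SE 0.10) between high fat diet and control and by 0.00 between metformin and high fat diet. let-7i-5p was the member with the largest high fat diet minus control value, 0.20 (SE 0.08, adjusted p = 0.104 by limma), and its difference between metformin and high fat diet was -0.17 (SE 0.08). All 3 high fat diet arrays lay above the arrays of both other groups for let-7i-5p, so its order over the groups was the opposite of that of miR-202-3p. miR-98-5p, a let-7 family member by its seed, differed by -0.17 (SE 0.10) between high fat diet and control and by -0.05 (SE 0.10) between metformin and high fat diet.

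**Figure D4:**
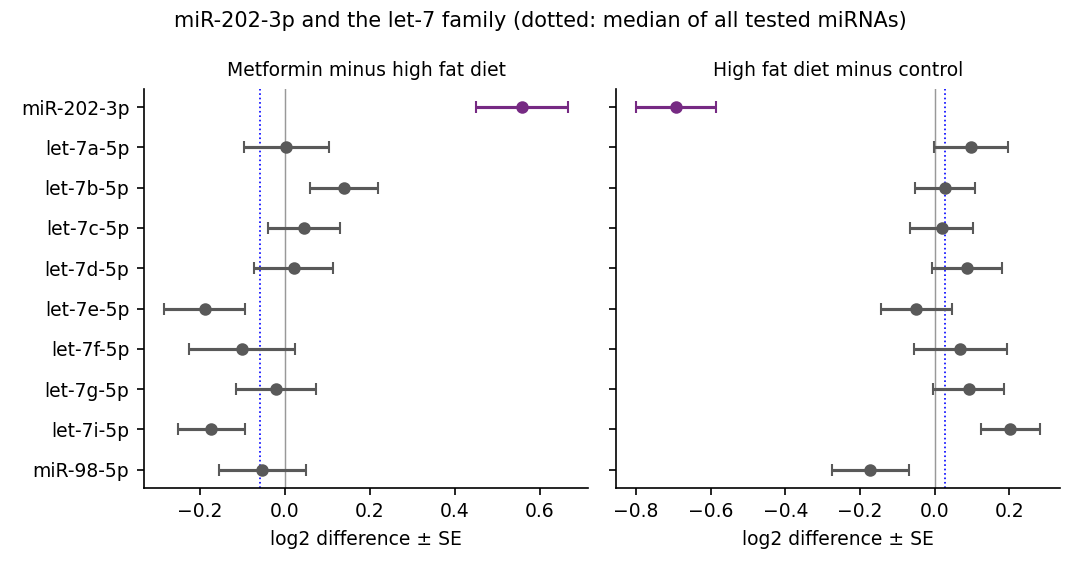
Log2 differences ± SE of miR-202-3p (purple) and the 9 tested let-7 family members (grey), for metformin minus high fat diet on the left and high fat diet minus control on the right. The dotted line is the median of all tested miRNAs. miR-202-3p lies at 0.56 and -0.69, and the let-7 members lie between -0.19 and 0.20.

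The miRNAs whose levels were most like that of miR-202-3p were taken by the Pearson correlation of log2 levels over the 9 arrays. The 6 highest of the 142 others were miR-6366 (0.86), miR-20b-5p (0.84), miR-3473g (0.83), miR-7050-5p (0.83), miR-6965-5p (0.79) and miR-6538 (0.77). The median over the 142 was -0.01, 4 exceeded 0.8 and 0 exceeded 0.9. All these points share the same 9 arrays, the same strips and the same scaling percentile. For deviations from the group means the median correlation of the 142 with miR-202-3p was 0.33, so a part of such likeness was common to many miRNAs and lay within groups. Within groups, the correlation was 0.69 for miR-6366, 0.87 for miR-20b-5p, 0.23 for miR-3473g, 0.71 for miR-7050-5p, 0.56 for miR-6965-5p and 0.15 for miR-6538.

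None of these 6 has the seed of miR-202-3p. The sequences of 4 are shown with their seeds in capitals, among them miR-6965-5p, which equals miR-202-3p over bases 2 to 5. Counted from the 5′ end, miR-6965-5p and miR-7050-5p each equal miR-202-3p at 11 positions in all. miR-20b-5p belongs to the miR-17 family, known for its role in proliferation.
miR-6366: aGCUAAGGggcccggggagcca
miR-20b-5p: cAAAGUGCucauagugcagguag
miR-7050-5p: aCAGGAGAagggggugagaga
miR-6965-5p: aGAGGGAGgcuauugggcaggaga
Among the tested miRNAs, 125 of 143 (87.4%) had a RefSeq sequence, with a median of 50% G and C, the same as in miR-202-3p (50%). The 6 most like it had 72.7% (miR-6366), 47.8% (miR-20b-5p), 55% (miR-3473g), 57.1% (miR-7050-5p), 58.3% (miR-6965-5p) and 94.7% (miR-6538).

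miR-7050-5p had the largest difference of these 6 between metformin and high fat diet. Its log2 level was -3.45, -3.36 and -3.39 with metformin, -3.71, -3.87 and -4.06 on the high fat diet, and -3.60, -3.55 and -3.58 on chow. The 3 groups did not overlap, and metformin arrays lay above control arrays. It rose by 0.47 with metformin over the high fat diet (SE 0.10, adjusted p = 0.0465 by limma), and its difference between high fat diet and control was -0.30 (SE 0.10, adjusted p = 0.0624). It was picked by likeness to miR-202-3p over these same arrays, so these p-values are no independent test. This call was not made with the strips kept and outlier-marked spots left out, or with any 1 of the metformin arrays left out, where limma called 0 miRNAs between metformin and high fat diet (6 to 18 at an unadjusted p under 0.05).

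miR-6538 fell on the high fat diet by 0.67 (SE 0.11, adjusted p = 0.00665 by limma), and differed by 0.22 between metformin and high fat diet with overlapping arrays. miR-3473g fell by 0.36 on the high fat diet (SE 0.11, adjusted p = 0.0498 by limma) and differed by 0.31 between metformin and high fat diet (adjusted p = 0.307). For the remaining 3, the differences between high fat diet and control were -0.24 for miR-6366, -0.18 for miR-20b-5p and -0.45 for miR-6965-5p, none of which passed the test. With the strips kept and outlier-marked spots left out, limma called 0 miRNAs between high fat diet and control (28 at an unadjusted p under 0.05), so the calls for miR-6538 and miR-3473g were not made there. All of these 6 had the sign of miR-202-3p in both comparisons, which their choice by likeness fixes in large part. The calls among them rest on the same values as that choice, so they are no test of a shared pattern. Over all 143 miRNAs limma called 14.0% in high fat diet minus control and 1.40% in metformin minus high fat diet.

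At the other end, the lowest correlations belonged to miR-199a-3p (-0.84), let-7i-5p (-0.82) and miR-378b (-0.79), with miR-34a-5p next (-0.78). For deviations from the group means the correlations were -0.54, 0.44, -0.24 and 0.43 in that order. The negative values of let-7i-5p and miR-34a-5p thus came from the group means, on which miR-202-3p was chosen. miR-199a-3p, known from stellate and other mesenchymal cells, had a log2 level of -2.17, -2.25 and -2.15 with metformin, -2.13, -2.10 and -2.02 on the high fat diet, and -2.37, -2.36 and -2.44 on chow. Both high fat groups lay above chow for this miRNA. Its level with metformin differed from that on the high fat diet by -0.11 (adjusted p = 0.632 by limma). miR-378b differed by 0.21 between high fat diet and control (adjusted p = 0.104 by limma).

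**Figure D5:**
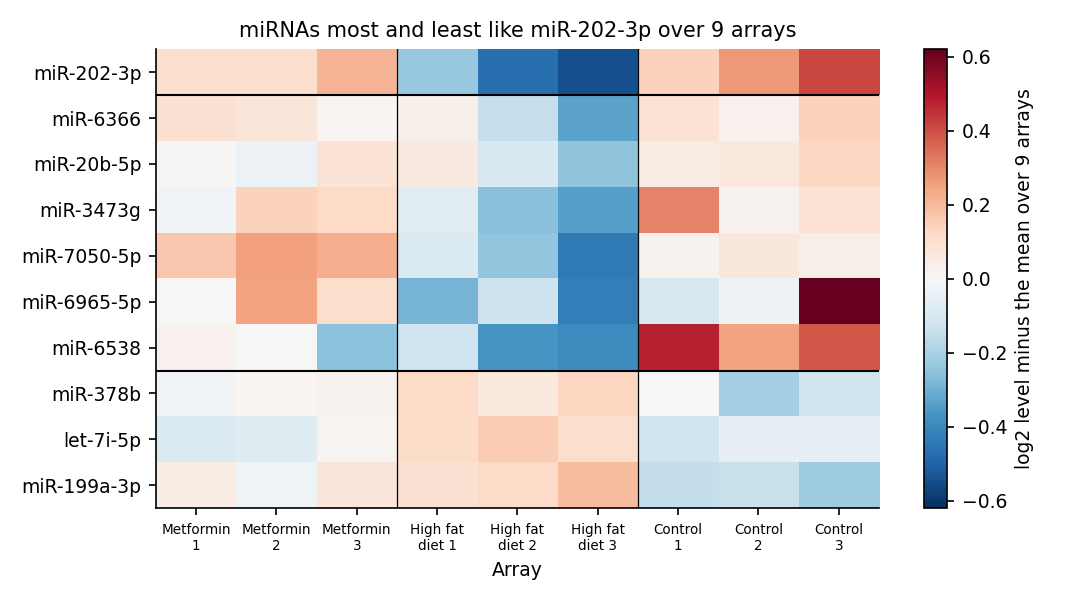
Log2 level minus the mean over the 9 arrays (colour scale) for miR-202-3p in the top row, the 6 miRNAs most like it below, and the 3 least like it at the bottom, with 1 column per array. The high fat diet columns are mostly blue in the upper rows and red in the lower 3, and the third high fat diet array is the lowest in miR-202-3p and in all 6 miRNAs most like it.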

How the data were processed

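Liver miRNA from 9 pools was measured on one-colour arrays. Per the file headers, the deposited scanner files hold the background-subtracted intensity of each spot from Agilent Feature Extraction 11.5.1.1, unscaled between arrays, whereas the submitters' processing notes give version 10.7. The series' deposited values are log2 values, and the sources used here do not say how they were scaled. There were 0 columns that could not be assigned to a sample, 0 saturated spots and 0 identical array pairs.

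Control spots were left out. Bright probes were those whose spots had an 80th percentile above 100 intensity units. Edge columns were left out in steps of 4. This ended at the first step where, as in the next, under 10% of the spots of bright probes lay under 50% of that level. The median of the spots left, omitting those marked non-uniform, stood for a probe, and 425 probes with under 3 such spots on an array were dropped. Values were divided by the 75th percentile over probes detected on all arrays (over a share of 0.5 of spots well above background), logged to base 2 and held at a floor (0.0406 times the 75th percentile before the log, set at percentile 1 of detected probes). The probe with the highest mean represented a miRNA.

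limma 3.58.1 in R 4.3.3 (files read with version 1.17.8 of data.table) fitted 3 group means with 1 shared spread over 143 miRNAs. Tests were two-sided, with Benjamini-Hochberg adjustment and a threshold of 0.05. With 3 arrays a group, an exact permutation test reaches p = 0.1 at the lowest, and the small number of arrays limits the precision. The code was tested on simulated data.

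The members and lists were chosen with earlier results of these data known. Named miRNAs were the members, the 6 most and 3 least like miR-202-3p over the 9 arrays, the let-7 family, and up to 4 members per marker list by mean level. Some further marker names are given to say which were not detected. The deviations of same-numbered arrays had correlations between -0.236 and 0.433, so replicate numbers were not taken to pair the arrays. Alternatives covered spots, scaling, background correction (normexp with offset 50, on the median signal, since the files hold no mean signal column), filter, slide, row, replicate block, probe, the deposited values and each array left out.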

Additional observations from a re-analysis of the deposited data

How the results depend on the processing

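Counting only alternatives that could change the value, each fit once, miR-202-3p was negative in 16 of 16 for high fat diet minus control and positive in 18 of 18 for metformin minus high fat diet, whereas metformin minus control was positive in 4 and negative in 14. Leaving out 1 array in turn gave -0.76 to -0.62, 0.49 to 0.65 and -0.17 to -0.07 in these 3 comparisons. High fat diet minus control moved by more than the spread between replicates to -0.45 with the strips kept and spots without outlier marks averaged, -0.15 with the percentile over all probes, -0.40 with normexp, -0.56 with row as a block, -0.38 by the other probe and -0.55 in the deposited table. Metformin minus high fat diet moved to 0.83 with the percentile over all probes, 0.25 with normexp and 0.42 in the deposited table. Metformin minus control moved to 0.021 with the strips kept and outlier marks left out, 0.68 with the percentile over all probes and 0.083 by the other probe. With the percentile over all probes the median of all tested miRNAs moved to 0.56, 0.21 and 0.80, and miR-202-3p lay at -0.71, 0.62 and -0.13 relative to it. That setting changes only the divisor of each array. Apart from the floor, the distance to the median is thus kept by construction and is no check of the difference. With normexp these medians were -0.13, 0.04 and -0.10. Of 2 settings added after the data were seen, the same spot positions gave -0.51, and the strips kept with only spots marked non-uniform left out gave -0.47 for high fat diet minus control and 0.018 for metformin minus control.

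The counts called by limma (20, 2 and 2 of 143 in high fat diet minus control, metformin minus high fat diet and metformin minus control, with 51, 13 and 30 at an unadjusted p under 0.05) depended on the reading. They were 0, 0 and 0 with the strips kept and outlier marks left out, 1, 0 and 98 with the percentile over all probes, 0 and 0 in the last 2 comparisons with normexp, 0 and 1 there without the filter, 0, 0 and 5 with row as a block, 0 in metformin minus high fat diet with quantile normalization, 0 and 0 in the last 2 with the same positions, and 3, 0 and 1 with the strips kept and only spots marked non-uniform left out. The split of 6 higher and 14 lower calls in high fat diet minus control became 9 and 11 with quantile normalization, 2 and 21 with normexp and 17 and 3 with the same positions. Where a count was 0 in these settings, the unadjusted p was under 0.05 for 28 to 31 miRNAs in high fat diet minus control, 6 to 23 in metformin minus high fat diet and 16 to 34 in metformin minus control. Leaving out 1 array gave 6 to 40, 0 to 3 and 1 to 8 calls. Without the third control array, alone on its slide, they were 40, 1 and 8. Calls in high fat diet minus control fell to 8 without the first control array, 6 and 7 without the first or second high fat diet array and 13 without the second metformin array. In metformin minus high fat diet they were 0 without any 1 of the metformin arrays or without array 2 of the high fat diet, and 1 without array 3 of the high fat diet. In metformin minus control they were 4 without the first control array and 1 without any metformin array. The causes were not tested.

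With replicate number as a block the differences of miR-202-3p are -0.69, 0.56 and -0.13 by construction, since every number holds 1 array of each group, and the calls were 22, 0 and 3. The replicate numbers were not taken to pair the arrays, so this block rests on a shared number alone. Signal over background limits both arms. miR-202-3p stood at 18.8 to 36.6 intensity units after subtraction of a local background of 16.1 to 21.3. miR-202-5p lay below the detection floor.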
